A study of Mus musculus with 45 samples.

Results

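The effect of F/R/C on day 4 of MyoD reprogramming was measured by comparing 3 libraries of mouse embryonic fibroblasts (MEFs) that received doxycycline and F/R/C for 4 days with 3 libraries that received doxycycline alone for the same time. The 6 libraries, of 45 in the whole series, were chosen by their titles and paired by replicate number. All of them came from MEFs labelled Tg:Pax7-nGFP/C57BL6;DBA2, so both arms carried a nuclear GFP reporter of Pax7. That label does not name the inducible MyoD, which doxycycline switched on in both arms. The labels call the cells given doxycycline alone myotubes, and those given F/R/C as well muscle fibers and progenitor cells. Untreated MEFs (day 0) and both arms on days 2, 6, 8 and 10 are used here only to place the values of day 4. Bulk RNA of whole cultures was sequenced, so fewer cells of a type and less RNA per cell cannot be told apart. Nothing in the labels says whether the replicates were separate cultures or embryos, and p-values measure only the spread between these libraries.

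MyoD is a transcription factor of the basic helix-loop-helix family that binds E-box motifs and can turn fibroblasts into skeletal muscle cells. The series' design text describes MyoD alone as the route to multinucleated myotubes and MyoD with F/R/C as the route to induced myogenic progenitor cells. From knowledge of the study, and not from the labels, the letters stand for forskolin, RepSox and a GSK3 inhibitor of the CHIR series. Forskolin activates adenylyl cyclase and so raises cyclic AMP, RepSox blocks the type I receptor of TGF-beta, and inhibition of GSK3 stabilises beta-catenin and so activates Wnt target genes. TGF-beta signals through SMAD proteins and is known for inducing extracellular matrix genes in fibroblasts and for holding back muscle differentiation. The 3 compounds were given together, and their separate parts cannot be told apart in these libraries.

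The day 4 libraries held 21.55 to 24.96 M reads. Levels are given as CPM, the reads of a gene relative to the total reads of its library after TMM scaling, and groups as mean ± SD over 3 libraries. Same-numbered libraries of the 2 arms deviated together from their group means. The r across genes was 0.35, 0.34 and 0.26 for numbers 1, 2 and 3, and -0.22 to -0.07 for different numbers. Deviations within an arm sum to 0 for each gene. The negative values therefore largely follow from the positive ones and add no separate comparison. Xist was read at 257 to 302 CPM in both arms of numbers 1 and 2 and at 0 in both arms of number 3, where Y-linked genes (Ddx3y, Kdm5d, Uty and Eif2s3y) summed to 151 and 160 CPM. The numbers were used as pairs in every test. Markers of differentiated skeletal muscle were abundant in both arms: Acta1, the skeletal muscle actin, stood at 8238 ± 2842 CPM with MyoD alone and 9871 ± 1751 CPM with F/R/C, and Myog, the transcription factor of myocyte differentiation, at 1361 ± 259.6 and 993 ± 152 CPM.

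Myod1 itself, which checks the induction, was high in every library. It lies at chr7:46376474-46379099 (GRCm38) and was read at 2111, 4878 and 2337 CPM with MyoD alone and at 876, 1305 and 1012 CPM with F/R/C, against 3.47 CPM in untreated MEFs. The arms did not overlap, and Myod1 fell by 1.47 on the log2 scale with F/R/C (SE 0.48, adjusted p = 0.019). That call was lost when MyoD replicate 2, F/R/C replicate 1 or F/R/C replicate 2 was left out. Reads of the introduced MyoD and of the resident gene cannot be told apart.

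F/R/C changed 3178 of 16688 genes tested on day 4, which is 19.0% of them. A gene was called when its adjusted p in edgeR's quasi-likelihood test was under 0.05 and its level differed at least 2-fold, a log2 fold change of 1. Of the called genes 1673 were higher with F/R/C (10.0% of all genes tested) and 1505 were lower (9.02%). The median absolute log2 fold change was 1.94 among the higher genes and 1.75 among the lower ones, and 375 and 262 of them differed at least 8-fold. The median log2 fold change over all genes tested was 0.01. In untreated MEFs 745 of the higher genes lay below both arms, 583 between them and 345 above both; of the lower genes 582, 527 and 396 did. In a fit of all 45 libraries without the block 2294 genes were called, and the following genes described below as changed lost their call there: in the TGF-beta family and matrix Ltbp2, Inhba, Cdkn2b, Col1a1, Col1a2, Col6a3, Bgn, Tagln, Myh11 and S100a4; in muscle Pax3, Myh2, Myl4, Myl6b, Colq, Cacna1s, Ppp1r3a and Ppp1r3c; in signalling Pde3a, Atf3, Bdnf, Dkk2, Jag1, Gdf6, Igf1, Igf2 and Cxcl12; and in the cell cycle and lipid synthesis Top2a, Aurkb, Ccnb1 and Elovl6. The plot of fold change against level shows genes of both directions over the whole range of expression.

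**Figure D1:**
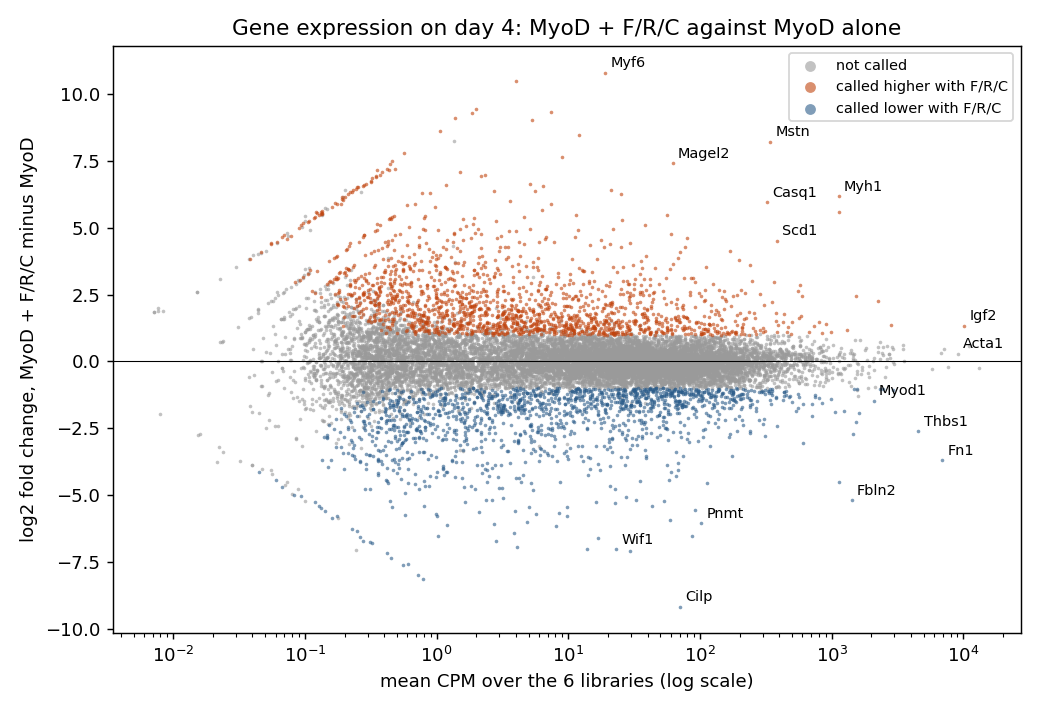
Log2 fold change on day 4 (MyoD with F/R/C minus MyoD alone, y axis) against mean level over the 6 libraries (CPM, log scale, x axis), 1 point for each of 16688 genes tested. The 1673 genes called higher and the 1505 called lower spread over all levels, with Myf6 at the top and Cilp at the bottom among the labelled genes; the straight rows of points at low levels are genes with almost no reads in 1 arm.

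The gene that stood highest with F/R/C against MyoD alone was Myf6 (MRF4, chr10:107492853-107494737 on GRCm38), the muscle regulatory factor of late differentiation. It was read at 35.8, 43.7 and 35.1 CPM with F/R/C and at 0.0432, 0 and 0 CPM with MyoD alone, which is 2464 reads against 1 read, a ratio of 2454 with a 95% counting interval from 440 to 96970. Pkd2l1, a cation channel of the polycystin family, had 9.04, 11.1 and 3.79 CPM against no read in any library of MyoD alone, and was at least 57.2-fold higher. All 3 libraries given F/R/C lay far above all 3 without it for both genes. Mstn (chr1:53061640-53068079), which encodes myostatin, the TGF-beta family hormone that limits muscle mass, stood at 659, 869.5 and 516 CPM with F/R/C and at 2.72, 2.87 and 1.26 CPM without it (log2 fold change 8.23, SE 0.69, adjusted p = 6.1e-09). In untreated MEFs it was read at 3.44, 0.0444 and 0.0604 CPM.

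The other genes among the 10 with the highest fold changes were of mixed kinds. Magel2, an imprinted gene of the MAGE family, rose from 0.726 ± 0.672 to 123 ± 46.5 CPM, and Lyve1, a hyaluronan receptor, from 0.0643 ± 0.0557 to 24.1 ± 2.77 CPM. Fbp2, the muscle isoform of fructose bisphosphatase, rose from 0.0964 ± 0.0835 to 10.1 ± 4.41 CPM. Adamts15, a matrix protease, Scara5, a ferritin receptor of fibroblasts, and Lum, the matrix proteoglycan lumican, had almost no reads with MyoD alone and 14.8 ± 10.99, 10.6 ± 6.22 and 17.9 ± 14.0 CPM with F/R/C. In untreated MEFs these 3 genes varied widely between libraries, at 4.84 ± 5.98, 5.86 ± 9.09 and 81.1 ± 117 CPM. Galnt6, a glycosyltransferase, differed greatly between the libraries given F/R/C, with 0.947, 3.54 and 34.0 CPM, all above the 0.0864, 0 and 0.194 CPM of MyoD alone.

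Cilp (chr9:65265180-65280605), a secreted protein of the cartilage matrix, was the gene with the largest fall. It was read at 51.7, 126 and 243 CPM with MyoD alone and at 0.258, 0.202 and 0.183 CPM with F/R/C (log2 fold change -9.18, SE 0.69, adjusted p = 1.0e-09). The libraries of MyoD alone differed widely among themselves, with replicate 3 the highest, and even the lowest stood far above all libraries given F/R/C. Ramp1, a subunit of the CGRP receptor, was read at 121, 268 and 132 CPM with MyoD alone and at 3.53, 1.01 and 0.777 CPM with F/R/C. Pnmt, the enzyme that makes adrenaline from noradrenaline, was read at 228, 264 and 108 CPM with MyoD alone and at 4.44, 3.69 and 1.14 CPM with F/R/C. Ramp1 and Pnmt were near 0 in untreated MEFs (0.244 and 0 CPM), so MyoD alone was the arm in which they stood high. The other 7 of the 10 genes with the lowest fold changes were Tfpi2, a protease inhibitor, Wif1, a secreted Wnt inhibitor, Lce1h, Aldh3b3, Calml3, Dock8 and Mpzl2, with log2 fold changes from -7.03 to -6.09. Reads of Aldh3b3 were in part divided with another gene in all 6 libraries, and its level is uncertain, as for other genes given with the processing.

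The promoters of 5 genes, Mstn, Cilp and 3 muscle genes described further on, are shown because the introduced factor binds E-boxes and because one of the compounds acts on SMAD signalling. Each is the 250 bases before a RefSeq transcription start (RefSeq, GRCm38.p6), on the gene's strand, in lower case, with a MyoD-type E-box (CAGCTG, which reads the same on both strands) or a SMAD CAGA box (CAGACA or its reverse complement TGTCTG) in capitals. The windows are chr1:53061390-53061639 (plus strand) for Mstn, chr1:172219896-172220145 (minus) for Casq1, chr11:67237562-67237811 (plus) for Myh4, chr7:102101493-102101742 (plus) for Art1 and chr9:65264930-65265179 (plus) for Cilp. The first 3 genes were higher with F/R/C and the last 2 were lower.
Mstn: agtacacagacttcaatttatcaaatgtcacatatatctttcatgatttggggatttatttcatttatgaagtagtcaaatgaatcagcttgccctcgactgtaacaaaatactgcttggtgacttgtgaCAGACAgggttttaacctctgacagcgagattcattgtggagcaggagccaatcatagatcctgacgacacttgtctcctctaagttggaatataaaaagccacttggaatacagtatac
Casq1: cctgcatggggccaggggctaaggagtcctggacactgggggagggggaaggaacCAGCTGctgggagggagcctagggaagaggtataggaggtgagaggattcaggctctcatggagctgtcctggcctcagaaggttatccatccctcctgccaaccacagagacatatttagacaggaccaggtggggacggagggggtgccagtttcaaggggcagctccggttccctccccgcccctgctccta
Myh4: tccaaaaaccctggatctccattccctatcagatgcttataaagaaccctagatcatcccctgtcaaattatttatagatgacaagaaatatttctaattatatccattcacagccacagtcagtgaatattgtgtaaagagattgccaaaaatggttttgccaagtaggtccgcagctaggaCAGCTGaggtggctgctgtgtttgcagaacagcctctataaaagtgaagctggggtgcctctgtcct
Art1: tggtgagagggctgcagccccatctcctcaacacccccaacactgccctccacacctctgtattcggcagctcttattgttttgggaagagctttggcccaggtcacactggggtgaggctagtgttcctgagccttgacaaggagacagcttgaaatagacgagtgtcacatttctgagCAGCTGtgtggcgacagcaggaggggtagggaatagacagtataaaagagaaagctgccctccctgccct
Cilp: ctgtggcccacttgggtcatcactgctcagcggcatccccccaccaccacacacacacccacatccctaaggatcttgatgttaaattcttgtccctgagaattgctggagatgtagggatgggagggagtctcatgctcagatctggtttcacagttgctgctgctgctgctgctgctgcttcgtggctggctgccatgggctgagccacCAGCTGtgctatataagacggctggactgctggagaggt
The E-box lay at -195 to -190 from the start in Casq1, at -67 to -62 in Myh4, at -70 to -65 in Art1 and at -39 to -34 in Cilp, and the CAGA box at -120 to -115 in Mstn. The same E-box was present before genes of both directions among those shown. Each gene shown holds a marked motif, so they do not stand for all called genes. Of 14679 protein-coding genes tested, 11379 matched such a window. CAGCTG was in any window of 17.38% of the genes called higher, 21.44% of those called lower and 15.11% of all genes that matched. Counted by window, it was in 13% of all 32851 windows of this length. CAGACA in either orientation was in 16.56%, 21.23%, 16.58% and 17.13% of the same groups. A cyclic AMP response element (TGACGTCA) was in 2.287%, 1.353%, 2.865% and 1.546%, and a TCF/LEF motif of the Wnt pathway (CTTTGAT, or ATCAAAG on the other strand) in 3.66%, 2.706%, 2.883% and 3.205%. The last share for each motif counts windows, and the others count genes, which can have several windows. These measures are not on the same scale. The shares describe letters in a window and were not tested.

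Genes that TGF-beta and SMAD3 are known to induce were lower with F/R/C. Of 28 such genes tested, 16 fell and none rose (57.1% against 9.02% lower among all genes). The median log2 fold change of the 28 was -1.43. This list, like the others, was chosen with earlier results of these data known. Pmepa1, a feedback inhibitor of TGF-beta signalling (chr2:173224458-173276533), was read at 334, 316 and 314 CPM with MyoD alone and at 34.6, 26.7 and 22.2 CPM with F/R/C (log2 fold change -3.54, SE 0.26, adjusted p = 8.3e-10). All libraries given F/R/C lay far under the lowest without it, and those with MyoD alone lay close together. Fn1, fibronectin, stood at 17858, 8642 and 11577 CPM with MyoD alone and at 2069, 680.4 and 513 CPM with F/R/C. Smad7 and Skil, inhibitors within the pathway that it induces itself, went from 86.9 ± 19.2 to 17.5 ± 9.36 CPM and from 121 ± 2.34 to 47.1 ± 12.0 CPM. The matricellular genes Ccn2, Ccn4 and Thbs1 fell by 3.06, 2.96 and 2.60 on the log2 scale, and Lox, which cross-links collagen, fell by 2.61.

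For 13 of the 16 called targets the mean of untreated MEFs lay between the 2 arms of day 4, as for Pmepa1 (76.5 CPM) and Ccn2 (244 CPM): their level stood above the MEFs with MyoD alone and under them with F/R/C. Loxl2 and Adam19, the targets with the most reads among those not called, had log2 fold changes of -0.95 and -0.11. The call of Cdkn2b, a cell cycle inhibitor on this list, was at the threshold (log2 fold change -1.001) and was lost without MyoD replicate 1, F/R/C replicate 2 or F/R/C replicate 3, as well as without the block.

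**Figure D2:**
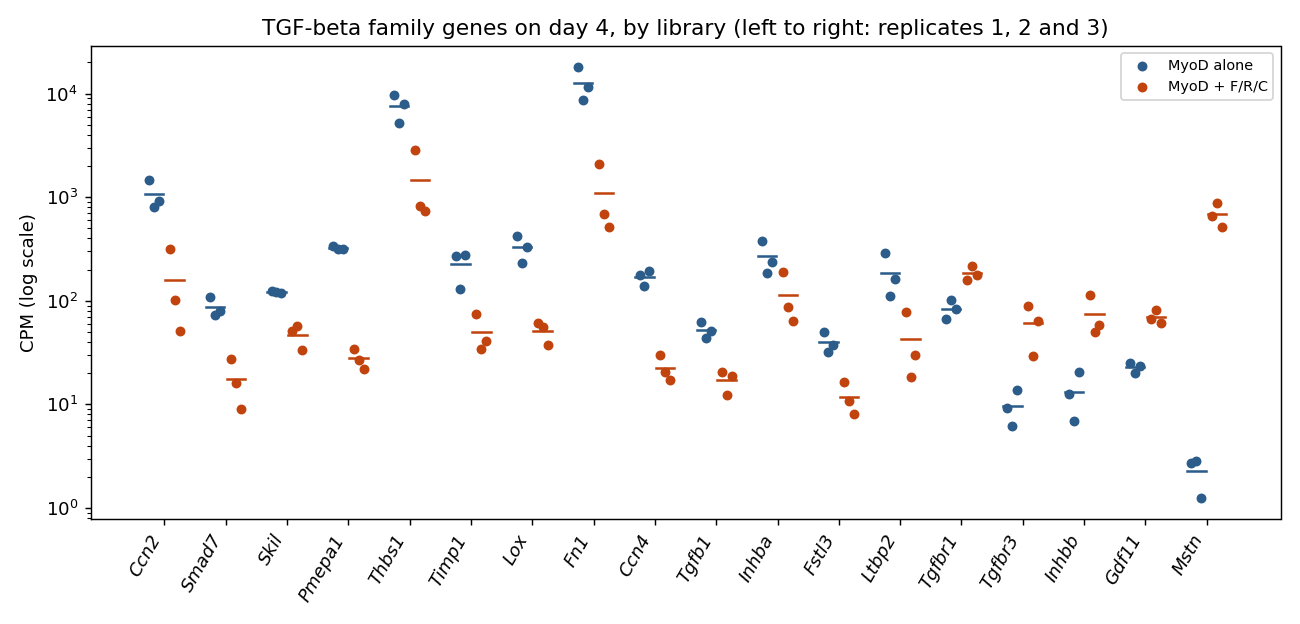
Level on day 4 (CPM, log scale, y axis) of TGF-beta targets, ligands and receptors, with 1 point for each library (replicates 1, 2 and 3 from left to right) and a bar at the mean of MyoD alone and of MyoD with F/R/C. From Ccn2 to Ccn4 all points of the F/R/C arm lie lower, whereas Tgfbr1, Tgfbr3, Inhbb, Gdf11 and Mstn lie higher in that arm.

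Ligands, receptors and binding proteins of the TGF-beta family moved both ways, with 5 of 22 higher and 6 lower (22.7% and 27.3%, against 10.0% and 9.02% of all genes; median log2 fold change -0.04). The ligand Tgfb1 was read at 62.7, 44.0 and 51.5 CPM with MyoD alone and at 20.4, 12.4 and 18.6 CPM with F/R/C (-1.63, SE 0.22, adjusted p = 3.6e-06). Ltbp2, a latent TGF-beta binding protein, Fstl3, an activin antagonist, and Inha, the inhibin subunit, fell by 2.28, 1.76 and 1.61 on the log2 scale. The activin subunit Inhba fell by 1.30, a call that was lost without F/R/C replicate 3 and without the replicate block. On the other side stood the receptors Tgfbr1 (83.8 ± 17.8 against 184 ± 29.3 CPM) and Tgfbr3 (9.69 ± 3.82 against 60.7 ± 29.8 CPM), and the ligands Inhbb (13.3 ± 6.72 against 74.2 ± 34.7 CPM), Gdf11 (22.9 ± 2.60 against 70.3 ± 10.7 CPM) and Mstn, all higher with F/R/C. The type II receptor Tgfbr2 had 95.2 ± 21.4 and 99.3 ± 29.2 CPM and was not called. Tgfb3, a ligand of the same family, was not called at a log2 fold change of 0.68.

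Genes of the extracellular matrix were called in both directions. Of 24 collagen genes tested 10 fell and 6 rose (41.7% lower), and of 31 matrix glycoproteins and proteoglycans 13 fell and 7 rose (41.9% and 22.6%; median log2 fold changes -0.62 and -0.97). Fn1, Lox and Thbs1 stand on both this and the TGF-beta target list. Collagen I, the main fibril of connective tissue, fell in both chains: Col1a1 was read at 3012, 1410.4 and 3152 CPM with MyoD alone and 729, 327 and 992 CPM with F/R/C, and Col1a2 fell by 1.87 on the log2 scale. Col5a2 and Col11a1, chains of the minor fibrillar collagens, fell by 2.27 and 3.60. The 3 chains of collagen VI, the beaded filament that surrounds muscle fibers, rose together. Col6a1 was read at 84.2, 39.1 and 144 CPM with MyoD alone and at 539, 252 and 659 CPM with F/R/C. Col6a2 was read at 23.3, 11.3 and 50.9 CPM and at 381, 185 and 528 CPM in the same order, and Col6a3 at 52.6, 25.6 and 219.8 CPM and at 500.5, 299.9 and 1088 CPM. Within each replicate number the F/R/C library was the higher one, and number 2 was the lowest of its arm for all 3 chains; the call of Col6a3 was lost without the block when only the compared groups were fitted. Col15a1, a basement membrane collagen of muscle and vessels, rose by 3.48 (SE 0.60, adjusted p = 8.0e-05). Col4a1 and Col4a2, the main basement membrane chains, were not called at -0.45 and -0.48.

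Among the other matrix genes the elastic fibre protein Fbln2 had the largest fall after Cilp. It was read at 3489, 1676 and 3100.5 CPM with MyoD alone and at 150.2, 48.6 and 44.2 CPM with F/R/C (-5.19, SE 0.42, adjusted p = 4.0e-09). The proteoglycan Bgn (biglycan) fell from 2524 ± 852 to 396 ± 229.6 CPM and the microfibril protein Mfap4 from 17.6 ± 4.05 to 1.71 ± 0.430 CPM. Of the other small leucine-rich proteoglycans, Dcn (decorin) was read at 0.562, 0.717 and 3.74 CPM with MyoD alone and at 32.0, 23.9 and 71.4 CPM with F/R/C. Ogn (osteoglycin) was read at 23.1, 16.0 and 20.8 CPM and at 185, 222 and 80.9 CPM, and Aspn (asporin) rose by 2.25, whereas Fmod (fibromodulin) was not called at 0.09. MEFs held more Dcn (176 CPM) than either arm. Of 29 matrix proteases and their inhibitors 7 rose and 8 fell (24.1% and 27.6%, against 10.0% and 9.02% of all genes). Adamts1 and Adamts9, proteases that cleave proteoglycans, rose by 1.85 and 2.03, whereas Adamtsl2, a microfibril-binding relative without protease activity, fell from 63.1 ± 10.2 to 1.73 ± 0.285 CPM, and Timp1, an inhibitor of metalloproteinases, fell by 2.16 on the log2 scale. Without the replicate block only 3 of the 7 proteases that rose were called.

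Of 25 genes of smooth muscle and myofibroblasts 2 rose, 4 fell and 19 were not called, which is 8.00% higher and 16.0% lower against the 10.0% and 9.02% of all genes. Acta2, smooth muscle actin, was not called, with 3434, 2535 and 3034 CPM in MyoD alone and 3065, 1876 and 1448 CPM with F/R/C. Its reads were in part divided with other genes, which were not identified. Tagln and Cald1, actin-binding proteins of contractile fibroblasts, fell by 1.55 and 1.34, whereas Myh11, the smooth muscle myosin, rose by 2.12 and Synpo2 by 1.80. Of 22 genes of fibroblast identity 6 rose and 2 fell (27.3% and 9.09%, median 0.72). The number lower was 1 without the replicate block. Prrx1, a transcription factor of limb mesenchyme, was read at 112, 67.3 and 132 CPM with MyoD alone and at 467, 319 and 313 CPM with F/R/C (1.87, SE 0.31, adjusted p = 5.5e-05), against 556 CPM in MEFs. Tbx15 and Fap rose by 1.63 and 2.52, and the surface marker Thy1 was not called at 0.70. In 5 of the 6 genes that rose the MEFs lay above both arms. S100a4, 1 of the 2 that fell, lost its call without F/R/C replicate 3.

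Genes that cyclic AMP and its factor CREB induce gave a divided picture. Of 34 tested, 9 rose and 2 fell (26.5% and 5.88%, against 10.0% and 9.02% of all genes). The median log2 fold change of the 34 was 0.41. Among the members that rose were 3 phosphodiesterases, enzymes that break down cyclic AMP. Pde3a was read at 4.97, 2.10 and 2.48 CPM with MyoD alone and at 36.0, 8.84 and 10.9 CPM with F/R/C, Pde3b at 7.48, 3.44 and 6.03 CPM and at 19.9, 14.2 and 28.0 CPM, and Pde4b at 16.9, 11.7 and 22.7 CPM and at 43.0, 39.1 and 61.7 CPM. The F/R/C libraries lay above those of MyoD alone for all 3 genes, and the call of Pde3a was lost without the replicate block. Sik1, a kinase that CREB induces, rose from 246 ± 44.7 to 529.7 ± 35.2 CPM and Nfil3, a transcription factor, from 28.9 ± 9.95 to 67.2 ± 11.7 CPM. Of the immediate early genes on this list Atf3, a stress-induced transcription factor, rose by 1.33, a call that was lost without MyoD replicate 2. Others were not called, with log2 fold changes of -0.77 for Fos, 0.24 for Nr4a1 and 0.74 for Crem. The neurotrophin Bdnf fell by 1.19, a call that was lost without F/R/C replicate 3 and without the block. Pck1, of gluconeogenesis, had 3 reads with F/R/C against 27 with MyoD alone. Neither of the 2 genes that fell was called without the block.

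Of 27 tested genes of the Wnt and beta-catenin pathway 6 rose and 3 fell (22.2% and 11.1%, median 0.15). The shares of all genes were 10.0% and 9.02%. Axin2, the feedback scaffold that reports beta-catenin activity in most tissues, was read at 2.64, 2.39 and 4.13 CPM with MyoD alone and at 16.1, 20.1 and 14.98 CPM with F/R/C (2.45, SE 0.39, adjusted p = 2.9e-05), and at 0.739 CPM in MEFs. Notum, a secreted Wnt inhibitor and target, was read at 0.173, 0.0956 and 0.0972 CPM with MyoD alone and at 6.59, 1.77 and 3.02 CPM with F/R/C. The secreted inhibitors Sfrp1 and Sfrp2 rose by 2.70 and 3.84. Wif1, another secreted inhibitor, fell from 45.7 ± 21.4 to 0.312 ± 0.290 CPM, and the target Lef1 fell by 1.37 on the log2 scale, a call that was lost without MyoD replicate 3 or F/R/C replicate 2. The targets Ccnd1 (cyclin D1) and Cd44 were not called at -0.97 and -0.35. Dkk2, another inhibitor that fell, lost its call without replicate 3 of either arm, and 1 of the 3 genes was left as lower without MyoD replicate 3.

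**Figure D3:**
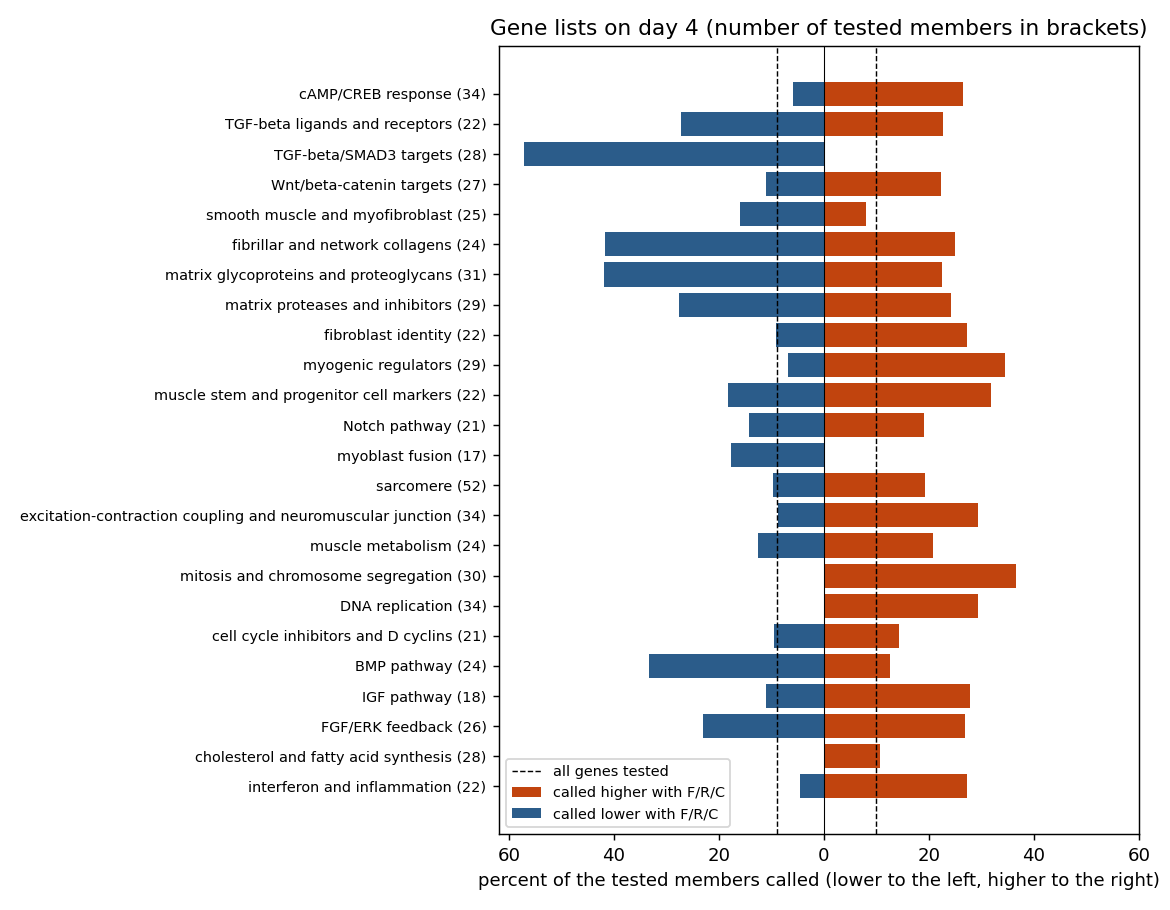
Share of the tested members of each gene list that was called lower (bars to the left) or higher (bars to the right) with F/R/C on day 4, in percent, with the number of tested members in brackets and dashed lines at the shares of all genes tested (9.02% and 10.0%). TGF-beta targets extend far to the left with no bar to the right, and the 2 cell cycle lists extend only to the right. The lists were chosen with earlier results of these data known.

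Among regulators of the muscle programme 10 of 29 rose and 2 fell (34.5% and 6.90% against 10.0% and 9.02% of all genes, median 0.52). Mef2a, a MADS-box partner of MyoD, was read at 247, 212 and 207 CPM with MyoD alone and at 566, 652 and 659.6 CPM with F/R/C (1.49, SE 0.16, adjusted p = 2.3e-07). The 3 libraries of each arm lay close together. Id4, an inhibitor of basic helix-loop-helix factors, rose from 1.77 ± 0.869 to 11.6 ± 3.51 CPM. Mef2c and Myog, the members with the most reads among those not called, had log2 fold changes of -0.76 and -0.46, with all 3 F/R/C libraries under those of MyoD alone in both. The 2 genes that fell were Myod1, given above, and Pax3 (0.173, 0.430 and 0.486 CPM with MyoD alone against 0.129, 0.0505 and 0.137 CPM with F/R/C), which lost its call without any 1 of 5 libraries (all but MyoD replicate 1).

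Factors of muscle stem cells were barely read on day 4. Pax7, which marks muscle stem cells and drives the GFP reporter of these MEFs, was read at 0.215, 0.202 and 1.14 CPM with F/R/C and at 0, 0 and 0.146 CPM with MyoD alone. These values are 34 reads against 3 reads over 3 libraries each, a ratio of 11.3 with a 95% counting interval from 3.55 to 57.4. Replicate 3 gave most of the reads in both arms. The call (adjusted p = 0.017) was lost without MyoD replicate 1, MyoD replicate 2 or F/R/C replicate 3. Myf5 (chr10:107482908-107486134), the regulatory factor of early myoblasts and the neighbour of Myf6, had 0.345, 1.52 and 0.731 CPM with F/R/C, which is 54 reads, and no read with MyoD alone, so it was at least 6.19-fold higher. Of 22 tested markers of muscle stem and progenitor cells 7 rose and 4 fell (31.8% and 18.2%, median -0.05). Among all genes tested 10.0% rose and 9.02% fell. Hey1, Notch3 and Heyl, given with the Notch pathway below, were among the markers that rose. Met, the receptor that guides muscle precursors, and Sdc3, a syndecan, fell by 1.45 and 1.76. Chodl, the lectin chondrolectin, fell from 9.64 ± 7.31 to 0.138 ± 0.0857 CPM. The cell adhesion markers Cdh15 and Ncam1 were not called at 0.62 and 0.08.

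Notch signalling keeps muscle stem cells quiescent. Of 21 tested members 4 were higher and 3 lower (19.0% and 14.3% against 10.0% and 9.02% of all genes, median 0.07). The target Hey1 was read at 4.11, 4.45 and 4.37 CPM with MyoD alone and at 14.6, 24.0 and 35.8 CPM with F/R/C (2.53, SE 0.44, adjusted p = 7.6e-05), and the receptor Notch3 at 40.1, 20.8 and 30.5 CPM and at 90.0, 89.8 and 171 CPM. In both genes F/R/C replicate 3 was the highest library. Heyl, another target, rose by 1.66, with overlapping groups (15.6, 13.0 and 25.03 against 22.4, 50.2 and 105 CPM) and a call that was lost without MyoD replicate 2 or F/R/C replicate 3. The ligand Jag1 fell by 1.10, a call lost without MyoD replicate 3 and without the replicate block, and Hes6 and Rbpj were not called at -0.06 and 0.46. The number higher was 2 without MyoD replicate 2 or F/R/C replicate 3, and the number lower was 1 without MyoD replicate 3. Hey1, Heyl and Notch3 stand on both the stem cell and the Notch list.

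The contractile programme was present in both arms, and individual isoforms differed. Of 52 sarcomere genes tested 10 rose and 5 fell (19.2% and 9.62%, against 10.0% and 9.02% of all genes). The median log2 fold change of the 52 was 0.14. The embryonic myosin heavy chain Myh3 was read at 7600.4, 11857 and 7311 CPM with MyoD alone and at 11107, 15771 and 12892 CPM with F/R/C, and was not called. The perinatal chain Myh8, the slow chain Myh7 and the giant scaffold Ttn were not called either, at log2 fold changes of -0.26, -0.54 and 0.15. The adult fast chains were higher with F/R/C. Myh1 (type IIX) was read at 31.1, 33.5 and 23.5 CPM with MyoD alone and at 2219, 2948 and 1521 CPM with F/R/C (6.20, SE 0.60, adjusted p = 4.8e-08). Myh4 (type IIB), whose promoter is printed above, was read at 154, 139 and 151 CPM and at 607, 798 and 1500.0 CPM, and Myh2 (type IIA) rose by 1.04, a call that was lost without MyoD replicate 1 or F/R/C replicate 3. Reads of the heavy chain genes are in part divided with other genes, which were not identified, so their single values are uncertain. On the per-length scale of TPM, which allows genes to be compared, Myh3 averaged 3797, Myh1 654, Myh4 274 and Myh2 64.1 TPM with F/R/C.

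Other members of the sarcomere list rose as well. Actn3, the fast alpha-actinin of the Z-disc, went from 495 ± 33.7 to 1307 ± 165 CPM, and Myoz1, a calcineurin-binding Z-disc protein, was read at 1.64, 2.58 and 2.33 CPM with MyoD alone and at 40.6, 119 and 170.3 CPM with F/R/C. Tmod4, a thin filament cap, and Mybpc2, the fast myosin-binding protein C, were near 0 with MyoD alone (0.255 ± 0.244 and 0.0951 ± 0.0860 CPM) and rose to 9.91 ± 11.2 and 3.66 ± 2.47 CPM. For Myoz1 and Tmod4 F/R/C replicate 1 was the lowest and replicate 3 the highest of its arm. Xirp2, a protein of the intercalated and Z-disc region, rose by 3.65. Of the myosin light chains, Myl3, the slow and cardiac one, fell from 45.9 ± 21.0 to 4.54 ± 3.27 CPM, Myl6b fell by 1.14, and Myl4, the embryonic and atrial chain, fell by 1.05, a call lost without replicate 2 of either arm. The fast light chains Myl1 and Mylpf were not called at 0.30 and 0.36. Of the 5 sarcomere genes that fell, 2 were called without replicate 2 of either arm and 3 without F/R/C replicate 1 or without the block.

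Of 34 genes of excitation-contraction coupling and the neuromuscular junction 10 rose and 3 fell (29.4% and 8.82%, median 0.27). Among all genes 10.0% rose and 9.02% fell. Casq1, the fast-fiber calsequestrin that stores calcium in the sarcoplasmic reticulum, was read at 11.9, 10.3 and 8.02 CPM with MyoD alone and at 498, 795 and 603 CPM with F/R/C (5.96, SE 0.49, adjusted p = 4.5e-09). All 3 libraries with F/R/C stood far above the highest without it. Pvalb, the calcium buffer of fast fibers, rose from 0.384 ± 0.0944 to 8.87 ± 4.94 CPM. Ache, which breaks down acetylcholine at the synapse, and Colq, its collagen anchor, rose by 2.12 and 1.91. The voltage sensor Cacna1s fell by 1.31 and the potassium channel Kcnj12 by 3.23. Srl and Atp2a1, proteins of the reticulum, were not called at 0.03 and 0.81. Without F/R/C replicate 3 the number that fell was 5.

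In muscle metabolism 5 of 24 genes tested rose and 3 fell (20.8% and 12.5% against 10.0% and 9.02% of all genes, median 0.31). Cox6a2 and Cox7a1, muscle isoforms of cytochrome oxidase subunits, rose from 20.3 ± 4.21 to 99.3 ± 34.9 CPM and from 0.569 ± 0.273 to 4.49 ± 2.43 CPM. Ppp1r3a and Ppp1r3c, which direct a phosphatase to glycogen, rose by 1.62 and 1.95. Mb, myoglobin, was read at 179, 264 and 134 CPM with MyoD alone and at 48.9, 61.05 and 29.8 CPM with F/R/C (-2.05, SE 0.32, adjusted p = 2.7e-05). The ADP-ribosyltransferase genes Art1 (chr7:102101743-102113933) and Art5 (chr7:102096879-102109489), whose annotated spans overlap, were both far lower. Art1 was read at 186, 284 and 184 CPM with MyoD alone and at 8.79, 11.4 and 7.58 CPM with F/R/C, and Art5 at 15.8, 19.9 and 18.2 CPM and at 1.72, 1.57 and 1.23 CPM. By the measure used here (a sum of reads that is not whole within 0.01) neither gene had reads divided with another gene in any of the 6 libraries. In myoblast fusion none of 17 genes tested rose (1 without replicate 3 of either arm) and 3 fell (17.6% against 9.02% of all genes). Largest was the fall of the adhesion molecule Jam2 (291 ± 56.4 against 41.5 ± 9.20 CPM). The fusion protein Mymk was not called at -0.23 (SE 0.54).

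**Figure D4:**
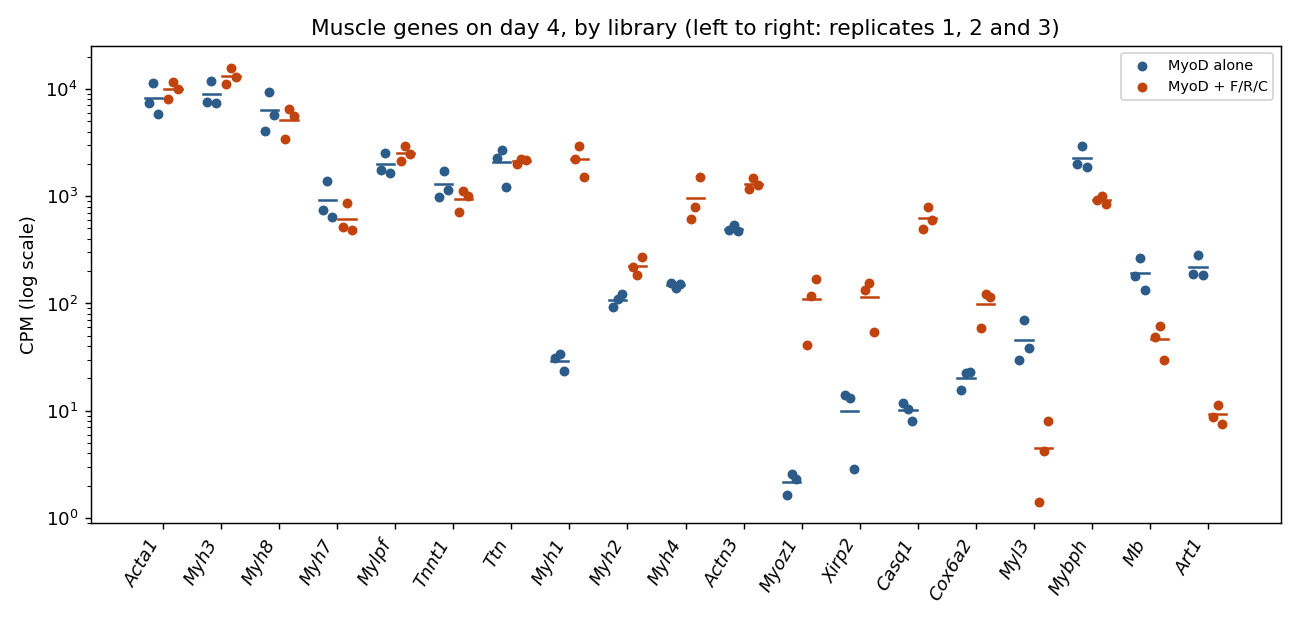
Level on day 4 (CPM, log scale, y axis) of muscle genes, with 1 point for each library (replicates 1, 2 and 3 from left to right) and a bar at the mean of each arm. The points of the 2 arms lie at like heights from Acta1 to Ttn, those with F/R/C are higher from Myh1 to Cox6a2, and those of MyoD alone are higher from Myl3 to Art1.

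Cell cycle genes were higher with F/R/C, with calls that depended on single libraries. Of 30 genes of mitosis and chromosome segregation 11 rose and none fell (36.7% against 10.0% higher among all genes, median log2 fold change 1.09), and of 34 genes of DNA replication 10 rose and none fell (29.4%, median 0.87). Top2a, the topoisomerase of dividing cells, was read at 33.3, 14.1 and 48.4 CPM with MyoD alone and at 73.1, 78.5 and 114 CPM with F/R/C (1.59, SE 0.58, adjusted p = 0.031). MyoD replicate 2 was the lowest library, as it was for Aurkb (6.09, 2.29 and 7.24 against 12.7, 12.6 and 20.3 CPM) and Ccnb1 (14.6, 5.64 and 17.7 against 28.2, 30.2 and 46.5 CPM), kinase and cyclin of mitosis. The groups did not overlap for 26 of the 30 mitosis genes, all with F/R/C above (24.6% of all genes lay so). The number of mitosis genes called went to 0 when MyoD replicate 1, MyoD replicate 2, F/R/C replicate 2 or F/R/C replicate 3 was left out, and to 2 without the replicate block. For DNA replication it was 4 without MyoD replicate 2, 5 without F/R/C replicate 2 and 6 without F/R/C replicate 3. The proliferation marker Mki67 was not called, with 35.2, 13.3 and 38.9 CPM with MyoD alone and 39.4, 37.6 and 63.8 CPM with F/R/C. Untreated MEFs lay above both arms for all 11 mitosis genes called, as for Top2a with 125 CPM.

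E2f2, a transcription factor of the replication programme, kept its call in every setting tried, with 4.797, 2.15 and 10.7 CPM with MyoD alone and 28.8, 42.2 and 67.3 CPM with F/R/C (3.01, SE 0.49, adjusted p = 3.5e-05). Among 21 inhibitors of the cell cycle and D cyclins 3 rose and 2 fell (14.3% and 9.52%, near 10.0% and 9.02% of all genes). Cdkn1c (p57), an imprinted inhibitor that accompanies muscle differentiation, was read at 121, 123 and 307 CPM with MyoD alone and at 724, 936 and 1340.0 CPM with F/R/C, and Cdkn2d rose by 1.37. Gadd45b, a stress gene that TGF-beta also induces, fell from 20.8 ± 4.08 to 5.74 ± 1.12 CPM. The other that fell was Cdkn2b, with the limits given above. Cdkn1a (p21) was not called at 0.04 (SE 0.13).

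The BMP pathway is the branch of the TGF-beta family that signals through other SMADs. Of its 24 tested genes 3 rose and 8 fell (12.5% and 33.3% against 10.0% and 9.02% of all genes, median -0.21). The ligand Gdf5 was read at 6.83, 3.30 and 3.64 CPM with MyoD alone and at 90.9, 85.8 and 42.8 CPM with F/R/C (3.96, SE 0.39, adjusted p = 5.5e-08). The receptors Acvrl1 and Bmpr1b fell by 2.40 and 2.03, and the ligand Gdf6 by 1.74. Id2, also on this list, rose by 1.19 (SE 0.34, adjusted p = 0.0081), a call that was lost without MyoD replicate 2. The target Id3 was not called at 0.54.

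Of 18 genes of the IGF pathway, which promotes muscle growth, 5 rose and 2 fell (27.8% and 11.1%, median 0.48). The shares of all genes were 10.0% and 9.02%. Igf2, the fetal growth factor, rose from 5793 ± 872 to 14521 ± 1088 CPM, whereas H19, its imprinted neighbour, was not called (14472 ± 3104 against 11963 ± 1401 CPM). The binding protein Igfbp5 was read at 458, 609 and 361 CPM with MyoD alone and at 2124, 2207 and 3377 CPM with F/R/C. The receptor substrate Irs1 was read at 52.9, 57.6 and 43.6 CPM and at 242, 325 and 216 CPM. Igf1 rose by 1.41, a call that was lost without replicate 2 of either arm.

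Of 26 genes of FGF signalling and its feedback 7 rose and 6 fell (26.9% and 23.1% against 10.0% and 9.02% of all genes). Fgf2, a mitogen of myoblasts, was read at 96.6, 44.7 and 71.2 CPM with MyoD alone and at 13.4, 4.95 and 2.42 CPM with F/R/C (-3.54, SE 0.38, adjusted p = 2.1e-07). The phosphatases Dusp4 and Dusp5, feedback genes of ERK, fell by 1.39 and 2.06, and the immediate early gene Egr1 by 1.28. Fgf21, a hormone of metabolic stress, rose from 0.154 ± 0.0519 to 5.49 ± 2.47 CPM, and the transcription factor Etv1 from 15.1 ± 3.29 to 43.1 ± 11.4 CPM.

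Of 28 tested genes of cholesterol and fatty acid synthesis 3 rose and none fell (10.7% higher, close to the 10.0% of all genes): the desaturases Scd1 and Scd2 and the elongase Elovl6. Scd1, the stearoyl-CoA desaturase, was read at 36.1, 29.5 and 32.8 CPM with MyoD alone and at 557, 953 and 703 CPM with F/R/C (4.52, SE 0.30, adjusted p = 2.1e-10), against 183 CPM in MEFs. Scd2 rose by 1.36, and the call of Elovl6 (1.05) was lost without MyoD replicate 2 or F/R/C replicate 3 and without the replicate block. Fasn, fatty acid synthase, was not called at -0.48. Reads of Scd1 and Scd2 are in part divided with other genes, which were not identified.

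Of 22 interferon and inflammation genes 6 rose and 1 fell (27.3% and 4.55% against 10.0% and 9.02% of all genes, median 1.09). The number that rose was 3 without MyoD replicate 1 and 3 without the replicate block. The neutrophil chemokines Cxcl1 and Cxcl5 rose from 2.03 ± 1.15 to 14.1 ± 6.06 CPM and from 0.213 ± 0.0806 to 9.09 ± 4.66 CPM, and Lcn2, a lipocalin of acute inflammation, had 48 reads with F/R/C, of which 44 lay in replicate 1, and none with MyoD alone. Cxcl12, the chemokine that guides Cxcr4-positive precursors, was read at 170.0, 70.5 and 35.1 CPM with MyoD alone and at 34.4, 13.1 and 9.59 CPM with F/R/C (-2.25, SE 0.45, adjusted p = 0.00039).

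Among markers of other cell types, those of fat cells moved with the treatment. Of 7 adipocyte genes tested 5 rose and none fell (71.4% higher against 10.0% of all genes). The list summed to 303 to 364 CPM with F/R/C and 13.2 to 26.1 CPM with MyoD alone. Lpl, lipoprotein lipase, which muscle also makes, gave most of that sum (347, 307 and 298 CPM with F/R/C and 23.2, 10.8 and 20.6 CPM with MyoD alone). Adipoq, the hormone adiponectin that defines fat cells, was read at 1.42, 0.505 and 0.137 CPM with F/R/C and at 0, 0.0478 and 0 CPM with MyoD alone, which is 46 reads against 1. F/R/C replicate 1 was the highest library for Adipoq and for Pparg (3.92, 2.07 and 1.74 CPM with F/R/C), the regulator of fat cells; Lep was at 0 with F/R/C, and the number of adipocyte genes that rose was 2 without MyoD replicate 1.

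The 10 macrophage and leukocyte genes summed to 18.9 to 22.8 CPM with F/R/C and 8.70 to 11.2 CPM with MyoD alone, most of it Itgam, with 1 of 5 tested higher and 1 lower; C1qa and C1qb were at 0 in all 6 libraries. The endothelial genes summed to 8.14 to 12.3 and 20.4 to 43.1 CPM, most of it Flt1, with 2 of 8 lower and Sox17 at 0. The epithelial genes summed to 18.1 to 35.2 and 8.60 to 9.72 CPM, with 3 of 5 higher, Krt5 at 0, and 1 higher when any library of MyoD alone or F/R/C replicate 2 was left out. The cartilage and bone genes summed to 24.0 to 31.3 and 33.9 to 55.4 CPM, with 1 of 6 higher and 2 lower and no gene at 0 in all libraries. The neuronal genes summed to 196 to 299 and 163 to 231 CPM, mainly Dcx and Tubb3, with 2 of 6 higher, and Neurod1 was near 0 in both arms. The Schwann cell and glial genes summed to 78.0 to 143 and 144 to 226 CPM, mainly Erbb3, with 1 of 5 higher and 1 lower and Sox10 and Olig2 at 0. For comparison with these counts, 10.0% of all genes tested were called higher and 9.02% lower. The part of these markers in the changes of matrix, lipid and inflammation genes was not tested.

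The effect of F/R/C on day 4 was compared with its effect 2 days earlier and 2 days later in the same fit. The effects of different days share no libraries, but both comparisons use those of day 4. The effect differed between day 4 and day 2 for 191 genes (1.14% of those tested), more positive on day 4 in 130 of them (0.779%) and more negative in 61 (0.366%). Between day 6 and day 4 it differed for none (0% of genes; edgeR gave 693 genes an unadjusted p under 0.05 and DESeq2 called 2), and the smallest adjusted p was 0.66. Casq1 and Myoz1 were among the genes whose effect was larger on day 4, by 3.23 and 4.77 on the log2 scale: with F/R/C Casq1 went from 29.6 ± 5.93 CPM on day 2 to 632 ± 151 CPM on day 4, and Myoz1 from 2.15 ± 0.917 to 109.8 ± 65.3 CPM. Itgb4, an integrin subunit, went with MyoD alone from 88.3 ± 23.9 to 14.5 ± 5.13 CPM and with F/R/C from 4.33 ± 1.67 to 12.7 ± 8.72 CPM, so that it was far lower with F/R/C on day 2 and not called on day 4. Chodl stood at 0.373 ± 0.285 CPM with MyoD alone and 0.490 ± 0.376 CPM with F/R/C on day 2, and at 9.64 ± 7.31 and 0.138 ± 0.0857 CPM on day 4. The difference of the effects was -6.59 for Chodl, -4.55 for the adhesion molecule Opcml and -3.84 for the unconventional myosin Myo1a. The number of genes with such a difference was 74 without MyoD replicate 2 or without F/R/C replicate 2, 122 without MyoD replicate 3, 126 without F/R/C replicate 3, 66 without the replicate block and 5 in all 45 libraries without it.

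On day 2 the libraries of the 2 arms already lay apart for Pmepa1, Mstn, Myf6, Myh1 and Cilp. Pax7 had no read with F/R/C on that day. Pmepa1 had its lower mean with F/R/C from day 2 on (350.1 ± 24.5 CPM with MyoD alone against 22.3 ± 1.70 CPM) and stood at 221 ± 49.5 CPM with MyoD alone and 20.8 ± 9.50 CPM with F/R/C on day 10. Mstn with F/R/C was at 240.1 ± 59.1 CPM on day 2 and 376 ± 46.7 CPM on day 10, whereas its means with MyoD alone on days 2 to 10 lay between 1.33 and 3.51 CPM. Myf6 with F/R/C went from 1.62 ± 0.539 CPM on day 2 to 38.2 ± 4.75 CPM on day 4. With MyoD alone its means were 0.0526 CPM on day 2 and 0.0144 CPM on day 4. Cilp with MyoD alone went from 8.37 ± 1.92 CPM on day 2 to 140.3 ± 96.7 CPM on day 4 and back to 29.2 ± 4.61 CPM on day 10, and with F/R/C it stood at 0.196 ± 0.0710 CPM on day 2 and 3.70 ± 3.29 CPM on day 10. For Pax7 with F/R/C the mean on day 4 was 0.520 ± 0.539 CPM, that on day 6 4.44 ± 4.05 CPM and that on day 10 64.5 ± 17.04 CPM. These courses are given as values, with no test beyond the 2 contrasts of effects.

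**Figure D5:**
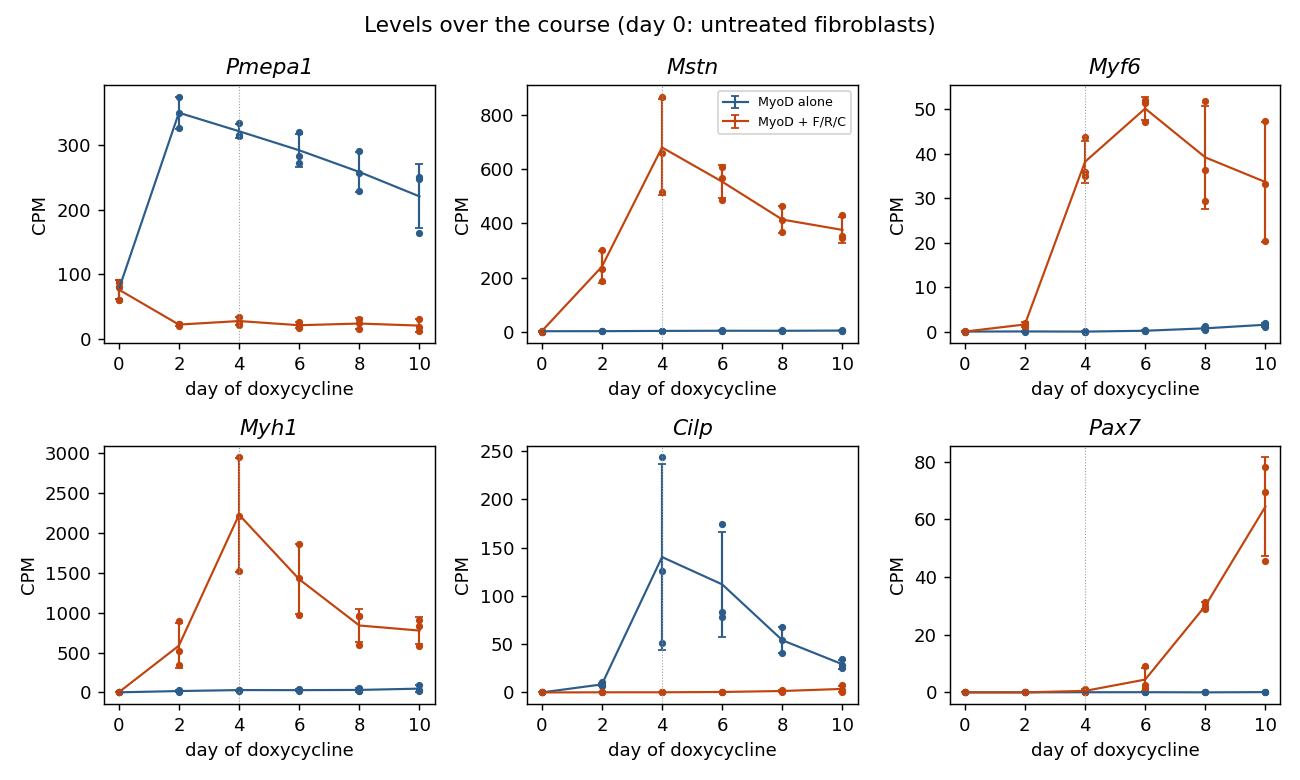
Level (CPM, y axis) of 6 genes by day of doxycycline (x axis; day 0 is untreated MEFs) with MyoD alone and with F/R/C; points are libraries, lines join the means and error bars are ± 1 SD over 3 libraries. On day 4 (dotted line) Pmepa1, Mstn, Myf6, Myh1 and Cilp are well apart and Pax7 is still near 0 in both arms, at 0.520 ± 0.539 CPM with F/R/C.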

How the data were processed

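The cultured cells were harvested with trypsin and their polyadenylated RNA was sequenced strand-specifically in single reads, per the labels' protocols. The authors deposited, per the file headers, 1 table per library with estimated counts (which need not be whole) and TPM for 121843 transcripts. The submitters' processing notes list bcl2fastq 2.19, Trimmomatic 0.36, kallisto 0.44 and edgeR 3.28 and the build GRCm38.p6; the transcript release is not given in the sources used here.

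Gene values were obtained by adding up the estimated counts of a gene's transcripts with the GENCODE M21 annotation (121104 transcripts matched, holding 99.4% to 99.6% of the reads of the day 4 libraries) and rounded to whole numbers. The deposited TPM values were summed in the same way. A gene's reads were taken as divided with other genes where its sum was not whole within 0.01. By this measure some named genes without a remark above also had divided reads in all 6 day 4 libraries. Among them were Acta1, Tgfb1, Jam2, Prrx1, Tbx15, Xirp2, Ache, Cald1, Dkk2 and Sfrp1, and their levels carry the same uncertainty. edgeR 4.0.16 (R 4.3.3) with TMM scaling, its filter on low counts by group and a quasi-likelihood test was fitted to the 33 libraries of MEFs and both routes, with a term for each of 11 groups and the replicate number as a block (20 residual degrees of freedom, 16688 genes). The comparison pairs libraries by number, and every same-numbered pair of day 4 correlated over 0.1 in its deviations from the group means. A gene was called where its p, adjusted by the Benjamini-Hochberg method over all genes tested, was under 0.05 and its level differed at least 2-fold; SEs are the log2 fold change divided by the square root of F. In simulated counts for this comparison 200 of 16499 genes were changed 4-fold, all drawn from genes with a mean over 20 reads in the arm. Of the changed genes 92% were called, with 12 false calls. Changed genes with fewer reads, or a share of changed genes as large as that called here, were not simulated.

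Named genes were, at 5 CPM or more in the higher arm, the 10 called coding genes with the highest and the 10 with the lowest fold changes, up to 4 called members in each direction and 2 uncalled members of each of 24 lists, and 3 in each direction of the day contrasts; 51 others, and the members of 7 lists of other cell types, were named after their values were seen. All members and lists were chosen with earlier results of these data known. Genes on 2 lists count in both. Some genes that these rules name are not reported here. List medians were the same to 2 decimals with genes without reads in 1 arm set to their bound of 3 reads in each of the arm's libraries. Intervals and bounds cover counting error only. Alternatives were DESeq2 1.42.0, RLE scaling, no filter, no block, other sets of libraries, no minimum fold and leaving out each day 4 library.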

Additional observations from a re-analysis of the deposited data

Results flagged for a closer look

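The effect of F/R/C differed between day 4 and day 2 by the test of the difference itself (edgeR, adjusted p under 0.05) in 17 of the genes named here. Values are the log2 difference of the 2 effects, day 4 minus day 2. Among muscle genes it was 4.77 for Myoz1, 3.23 for Casq1, 2.54 for Ppp1r3c, 1.35 for Ncam1 and 1.09 for Mef2a, and -6.59 for Chodl. Among matrix genes it was -2.59 for Fbln2 and -2.40 for Col11a1. Among signalling and metabolic genes it was 2.24 for the ligand Gdf5, 2.43 for Igfbp2, 2.42 for Scd1, -2.99 for Ramp1 and -1.11 for Fos. The other 4 were 4.20 for Itgb4, 4.09 for the histamine receptor Hrh3, -4.55 for Opcml and -3.84 for Myo1a. The calls of Ramp1 and Ppp1r3c were lost without replicate 2 or 3 of either arm, those of Gdf5, Ncam1 and Fos without replicate 2 of either arm, that of Mef2a without MyoD replicate 2, and that of Col11a1 without MyoD replicate 1, replicate 2 of either arm or F/R/C replicate 3. Without the replicate block the calls of Ramp1, Col11a1, Fbln2, Ppp1r3c, Ncam1, Gdf5 and Fos were lost, and in the compared groups alone without it those of Igfbp2 and Itgb4 were lost too. In the fit of all 45 libraries without the block only Opcml and Myo1a of the 17 were called.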

How the results depend on the processing

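The number of genes changed by F/R/C on day 4 was 2294 to 3273 over the other tools, scalings, filters and sets of libraries and 2717 to 3193 with 1 library left out, and 1667 of the 3178 genes (52.5%) were called in every one of these settings. With no minimum fold change 6503 genes were called, 3160 higher and 3343 lower. Without the replicate block 2686 were called. Of the values of named genes over these settings 3276 kept their call, 209 (in 64 genes) lost it, 35 (in 20 genes) gained it, and none that was called changed sign. For the difference between day 4 and day 2, 191 genes in the report (130 more positive, 61 more negative), DESeq2 called 342 (234 and 108), no minimum fold change 289 (105 more negative), and the compared groups alone 687 with the replicate block (399 and 288) and 82 without it (67 and 15). Without the replicate block 66 were called (52 and 14), and in all 45 libraries without it 5 (2 and 3). With 1 library left out the count ranged from 74 to 199 (57 to 132 and 16 to 67). For day 6 against day 4 DESeq2 called 2 genes (1 and 1), and edgeR none in any setting. The causes of these differences were not tested. Same-numbered libraries share sex-linked expression, but the labels do not say what a number stands for. Genes under about the level of 3 reads per library in 1 arm give only a bound or a wide interval, as for Myf5 and Pax7.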
